A study of Mus musculus with 16 samples.

Results

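The genes described here are 10 cytokine receptor chains, Il2rb, Il2rg, Il4ra, Il15ra, Il21r, Il6ra, Il6st, Il12rb1, Il12rb2 and Il18r1, taken by name from a table of 56748 genes. They were measured by RNA-Seq in splenic memory CD4+ T cells, sorted by surface markers that included CD4 (positive), CD25 (low or negative) and CD44 (high), from 2 mouse lines with 4 samples of each genotype. In the HP1a line, a floxed allele of the gene of heterochromatin protein HP1a was excised in all tissues by a CMV-cre parent, and HP1a KO and HP1a WT littermates came from crosses of heterozygotes. In the HP1g line, HP1g KO and HP1g WT littermates were both homozygous for a floxed allele of the gene of HP1g, with Cd4-cre, a transgene active in T cells, present only in the KO, so that Cre and the loss of HP1g cannot be told apart. All 4 groups were of mixed 129/Sv and C57BL/6 background and of matched sex, and the labels give no age for a sample. The labels number the samples of a group from 1 to 4 but do not say that each number is a separate mouse, so the p-values below measure the spread between samples, which may be in part technical.

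HP1 proteins bind methylated histone H3 in silent chromatin. Cytokine receptors of this family are built from shared and private chains. Il2rg encodes the common gamma chain, which pairs with Il2rb (and Il15ra) for IL-2 and IL-15, with Il4ra for IL-4 and with Il21r for IL-21. Il6st encodes gp130, which signals for IL-6 once Il6ra has bound the cytokine. Il12rb1 and Il12rb2 form the IL-12 receptor of Th1 cells, and Il18r1 binds IL-18 and signals with Il18rap. The receptors they form act through JAK kinases and STAT factors, except that for IL-18, which signals through MyD88 and IRAK kinases.

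The samples held 26694045 to 40199637 estimated counts, and all 10 chains passed the filter on low counts in all comparisons, with at least 322 counts in each sample. Both targeted genes were lower in their KO, with groups that did not overlap, although Cbx5 was not called. Cbx5, which encodes HP1a, ranged from 23.0 to 29.0 CPM (counts relative to library size, after TMM normalization) in HP1a KO and from 33.8 to 54.0 in HP1a WT (log2 fold change -0.58, edgeR adjusted p = 0.946). Cbx3, which encodes HP1g, ranged from 45.9 to 50.3 CPM in HP1g KO and from 73.4 to 92.5 in HP1g WT (log2 fold change -0.82, edgeR adjusted p = 0.0015). These values are RNA and do not measure protein. In naive CD4+ T cells, the study reported that HP1a was absent from its KO and HP1g almost completely deleted in its KO. Cd4 lay at 1015 to 1370.3 CPM. Foxp3, the defining factor of regulatory T cells, was present at 57.6 to 164 CPM, and Ncr1 of NK cells did not exceed 0.379 CPM. The summed CPM of 3 erythroid genes ran from 10.3 to 737 across the 16 samples.

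Il4ra and Il21r are neighbours. In GRCm39 and the GENCODE annotation, Il4ra spans chr7:125151079-125182844 and Il21r spans chr7:125202601-125232756, both on the plus strand, with 19756 bases and no annotated gene between them. Il12rb2 spans chr6:67268302-67353172 on the minus strand, 15.8 Mb from Cbx3. Il2rb spans chr15:78363456-78395566 on the minus strand, 24.7 Mb from Cbx5. The other chains lie on chr1 (Il18r1), chr2 (Il15ra), chr3 (Il6ra), chr8 (Il12rb1), chr13 (Il6st) and chrX (Il2rg). The 250 bases before the outermost annotated start are shown for Il4ra and Il21r, the chains that varied together most closely, and for Il12rb2, which varied with them less closely. The windows are chr7:125150829-125151078 (plus strand), chr7:125202351-125202600 (plus strand) and chr6:67353173-67353422 (minus strand), and none holds an annotated exon. Capitals mark a match to TTCNNNNGAA or TTCNNNGAA, the spacings recognised by STAT6 and by other STAT factors.
Il4ra: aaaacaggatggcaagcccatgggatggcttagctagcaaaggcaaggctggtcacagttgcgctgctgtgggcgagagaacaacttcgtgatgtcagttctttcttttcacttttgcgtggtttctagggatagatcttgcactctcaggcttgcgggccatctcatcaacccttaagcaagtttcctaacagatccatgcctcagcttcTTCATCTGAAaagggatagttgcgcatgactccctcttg
Il21r: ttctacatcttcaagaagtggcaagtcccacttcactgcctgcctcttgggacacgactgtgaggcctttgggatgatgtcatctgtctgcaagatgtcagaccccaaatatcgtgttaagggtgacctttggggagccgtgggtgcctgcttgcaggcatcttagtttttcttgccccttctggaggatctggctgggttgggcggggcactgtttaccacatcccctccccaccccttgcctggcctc
Il12rb2: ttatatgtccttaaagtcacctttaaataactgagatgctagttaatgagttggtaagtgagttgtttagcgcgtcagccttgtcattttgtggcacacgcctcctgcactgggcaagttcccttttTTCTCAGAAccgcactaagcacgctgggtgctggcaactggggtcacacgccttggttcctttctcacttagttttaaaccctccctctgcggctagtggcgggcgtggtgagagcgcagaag

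Among the windows of all 10 chains, on either strand, TTCNNNNGAA was found before Il4ra (39 to 30 bases before the start) and Il18r1, and in 5.97% of 21757 protein-coding genes. TTCNNNGAA was found before Il12rb2 (123 to 115 bases before the start) and in 7.82% of these genes. The AP-1 motif TGANTCA was found before none of the 10 and in 6.46%. No 2 matches overlapped. The Il21r window held none of the 3 motifs, nor did the Il6st window, which is not shown. Over the 16 samples, Il6st varied with Il4ra and Il21r more closely than Il12rb2 did. A match is a description of letters in this window, not a bound site. In RefSeq, another annotation, the 1 promoter of Il4ra did not hold the searched stretch of its window. The place of the Il4ra match relative to a start thus rests on the GENCODE start alone. The Il21r and Il12rb2 windows matched a RefSeq start with an offset of 0 bases.

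Compared per transcript length, in TPM (which scales counts by transcript length and library size), the common chain and its IL-2 and IL-15 partner stood highest. Mean TPM over the 16 samples was 661 for Il2rg, 562 for Il2rb, 221 for Il21r, 135 for Il4ra, 83.1 for Il18r1, 68.2 for Il6ra, 64.4 for Il6st, 43.0 for Il12rb1, 19.5 for Il15ra and 12.5 for Il12rb2. The order was clear at 2 steps, where the ranges over samples did not overlap: Il2rb lay above Il21r and Il12rb1 above Il15ra. All other neighbours in the order overlapped. Il21r was nevertheless above Il4ra, and Il6st above Il12rb1, in each of the 16 samples, while Il6ra was above Il6st in 10 of 16.

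**Figure D1:**
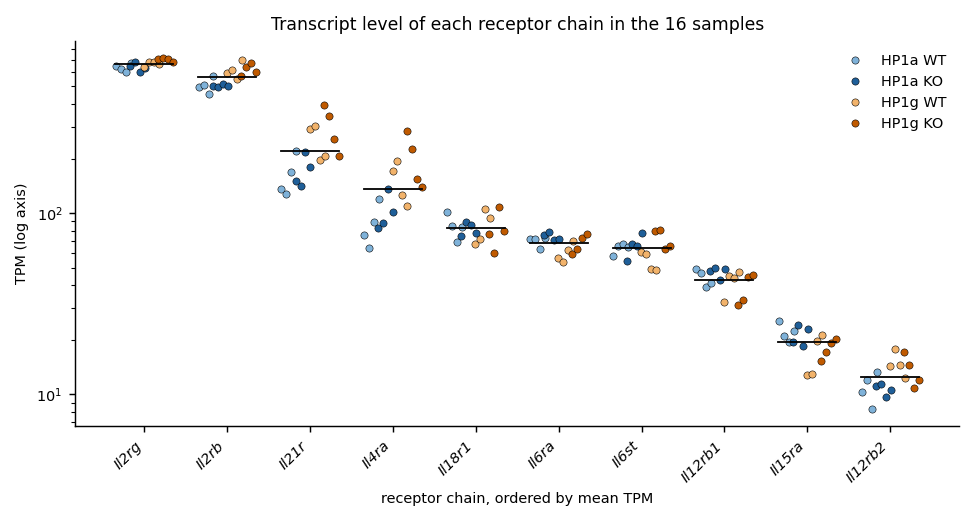
TPM (log axis) of each receptor chain in the 16 samples, one point per sample coloured by group, with the mean over all samples as a line. The chains run from Il2rg (mean 661) to Il12rb2 (mean 12.5), with gaps below Il2rb and below Il12rb1, and Il4ra and Il21r spread more widely than the rest.

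Partner chains of a receptor differed in how close their levels were. The ratio of TPM of Il2rb to Il2rg was 0.849 ± 0.085 (SD, n = 16), and that of Il15ra, the private chain for IL-15, to Il2rb was 0.0355 ± 0.0093 (SD, n = 16). Il12rb1 exceeded Il12rb2 by a ratio of 3.61 ± 0.98 (SD, n = 16). Il6st and Il6ra were near parity, with a ratio of 0.956 ± 0.187 (SD, n = 16), and Il18r1 stood to its partner Il18rap at 1.42 ± 0.23 (SD, n = 16). The chains also differed in how steady they were between samples. Il2rg was the steadiest, with a highest to lowest CPM ratio of 1.15 and a coefficient of variation of 3.82%. Il4ra had the widest spread (ratio 4.35, 43.6%), followed by Il21r (ratio 3.06, 35.1%) and Il12rb2 (ratio 2.09, 20.6%). The estimated counts of Il2rg were not whole numbers in 11 of 16 samples, which means that some reads were shared with another gene by the quantification, so its level is less certain. Those of the other chains were whole, to within 0.01.

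The comparison of HP1a KO with HP1a WT asks whether the loss of HP1a changes these receptors in memory cells. None of the 10 chains was called in this comparison (edgeR, adjusted p under 0.05), and 0% of the 14881 genes tested were. None reached an unadjusted p under 0.05, against 4.27% of all genes, and DESeq2 called none of the chains and 5 of all genes. Of the chains, 6 had a log2 fold change above 0, and their median was 0.04 against 0.003 over all genes.

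Il2rb, the beta chain for IL-2 and IL-15, measured 1088, 1080.1, 1148 and 1043 CPM in HP1a KO replicates 1 to 4 and 1082, 1093, 1011 and 1225 in HP1a WT. The KO values lay within the WT range (log2 fold change -0.02 ± 0.06 (SE, n = 4 and 4), edgeR adjusted p = 0.986). Il2rg was as close, at 561 to 606 CPM against 540.2 to 611 CPM, and its fold change had a 95% confidence interval of 0.932 to 1.10. Il15ra was at 14.4 to 17.3 CPM in KO and 15.2 to 16.5 CPM in WT. Il4ra, the IL-4 receptor alpha chain, measured 213, 225, 365 and 252 CPM in HP1a KO and 194, 164, 239 and 313 in HP1a WT. The highest sample was KO replicate 3, and without it the log2 fold change went from 0.21 to 0.02. The interval of the fold change, 0.838 to 1.60, was the widest of the 10. Il21r, the IL-21 receptor, followed the same samples, at 205, 192, 314 and 243 CPM in KO and 186, 172, 244 and 303 CPM in WT.

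Il6ra, which binds IL-6, was the only chain whose groups did not overlap. It measured 226, 234, 225 and 221 CPM in HP1a KO and 219, 218, 206 and 219 in HP1a WT, a log2 fold change of 0.07 ± 0.05 (SE, n = 4 and 4). All 4 KO samples were above all 4 WT samples, as in 2.96% of all genes tested in either direction, but the gap was narrow and HP1a WT replicate 3 lay apart from the other WT samples. The exact two-sided permutation test of the means gave p = 0.0286, the smallest that 4 against 4 allows, and 0.429 after adjustment over the 30 tests of 10 chains in 3 comparisons. The edgeR adjusted p was 0.946. Il6st lay at 199.5 to 265 CPM in KO and 211 to 244 in WT, with KO replicate 1 the lowest of all 8 samples. Cell markers moved with these groups too. The summed CPM of 8 markers of CD4 memory cells was 5083 to 5213 in HP1a KO and 4716 to 4979 in HP1a WT, without overlap. Of the cell markers tested, Cd5, Lef1, Cd8b1 and Cd79b were likewise higher in all KO samples than in all WT samples (log2 fold changes 0.15, 0.17, 0.61 and 0.42, edgeR adjusted p = 0.946 for each). The part of the cell mix in the value of Il6ra was not tested.

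The IL-12 and IL-18 receptors overlapped as well. Il12rb1 lay at 72.0 to 81.0 CPM in HP1a KO and 66.3 to 80.5 in HP1a WT (log2 fold change 0.11 ± 0.07 (SE, n = 4 and 4), edgeR adjusted p = 0.946). Il12rb2, the inducible chain of Th1 cells, was at 18.5 to 19.9 CPM in KO, inside the WT range of 15.4 to 23.9. Il18r1 was at 153 to 185 CPM in KO and 149 to 210.0 in WT.

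**Figure D2:**
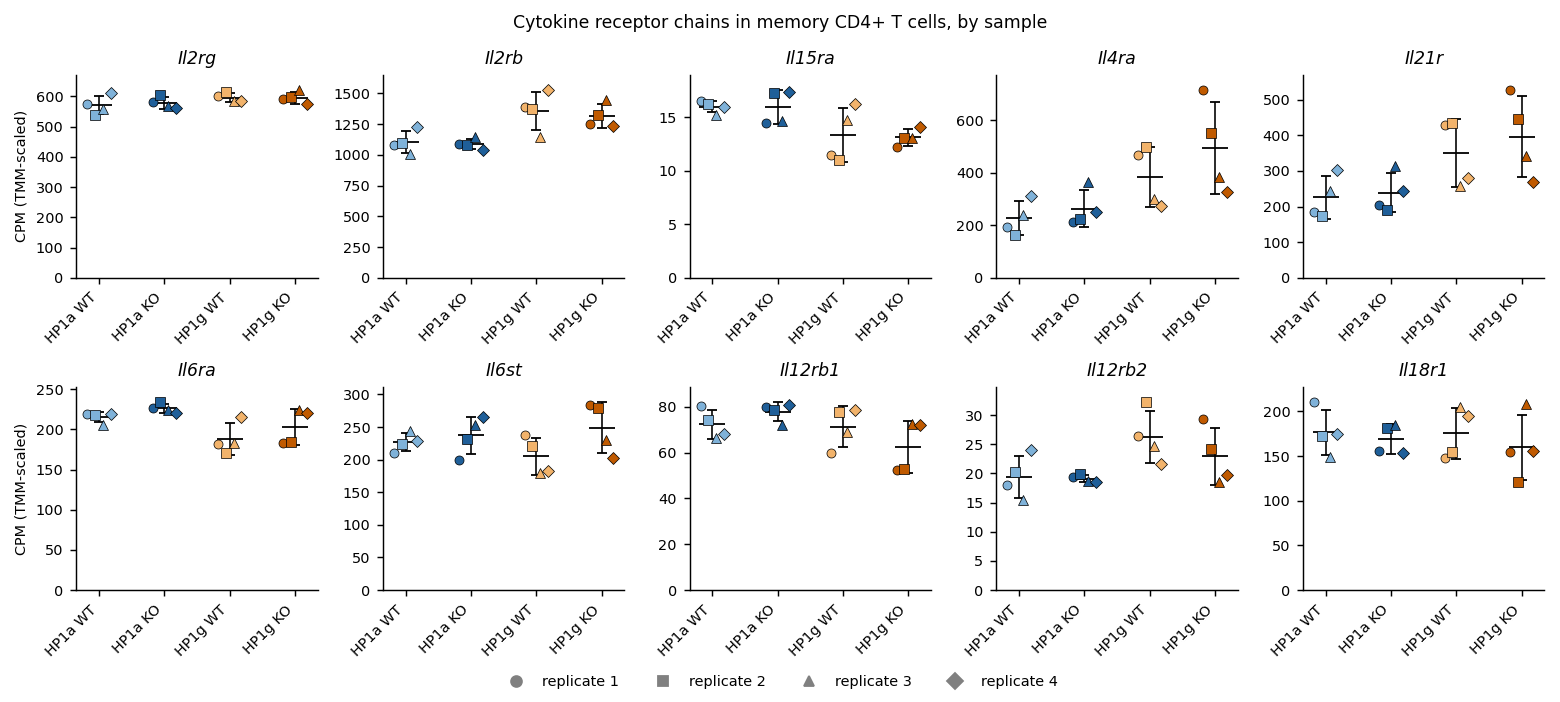
CPM (TMM-scaled, linear axes from 0) of the 10 receptor chains by group, with one point per sample, the marker shape giving the replicate number, and the mean ± SD of 4 samples as a bar. KO and WT of either line overlap for every chain but Il6ra in the HP1a line. Il2rb and Il15ra differ between the KO groups of the 2 lines without overlap, and the share of all genes that do so was not computed.

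The HP1g comparison asks the same of HP1g. None of the 10 chains was called by edgeR, or by DESeq2 without a replicate block, and edgeR called 0.327% of 14975 genes (0.254% higher in KO and 0.0735% lower). Il6st was the only chain with an unadjusted p under 0.05, which 11.9% of all genes had. None of the chains had groups that did not overlap, against 7.1% of all genes. Of the chains, 5 had a log2 fold change above 0, and the median was -0.005 against 0.0005 over all genes.

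Il6st, the signalling chain gp130, measured 284, 278, 230.1 and 203 CPM in HP1g KO replicates 1 to 4 and 238, 220.4, 179 and 183 in HP1g WT. Replicates 1 and 2 were the high samples in both genotypes, and KO replicates 3 and 4 fell within the WT range. The log2 fold change was 0.29 ± 0.13 (SE, n = 4 and 4), a fold of 1.22 with a 95% confidence interval of 1.01 to 1.49, with an unadjusted p of 0.0440 and an edgeR adjusted p of 0.406. The exact two-sided permutation p was 0.143. Its partner Il6ra measured 183, 185, 224 and 220.1 CPM in KO and 182, 170.2, 183 and 216 CPM in WT, with replicates 1 and 2 low rather than high. Its log2 fold change was 0.12 ± 0.10 (SE, n = 4 and 4).

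Il4ra measured 715, 551, 382 and 329 CPM in HP1g KO and 467, 499.9, 301 and 272 in HP1g WT. The KO values reached higher, but the spread within each genotype was larger than the difference between them (log2 fold change 0.37 ± 0.26 (SE, n = 4 and 4), edgeR adjusted p = 0.598), and without KO replicate 1 the log2 fold change was 0.14. Il21r showed the same order of samples, at 527, 446, 343 and 268 CPM in KO and 429, 434, 257 and 279 in WT (log2 fold change 0.19 ± 0.23 (SE, n = 4 and 4), edgeR adjusted p = 0.776). Il2rb lay at 1239 to 1449 CPM in KO, inside the WT range of 1148 to 1527. Il2rg lay at 574 to 621 CPM in KO and 585 to 614 CPM in WT, with a 95% confidence interval of the fold change of 0.927 to 1.09. Il15ra lay at 12.2 to 14.1 CPM in KO, inside the WT range of 11.0 to 16.2.

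Il12rb1, Il12rb2 and Il18r1 were lower on average in HP1g KO, without passing the test. Il18rap, the partner of Il18r1, was not lower (log2 fold change 0.10). Il12rb1 measured 52.3, 52.9, 72.3 and 72.2 CPM in KO and 59.7, 77.8, 69.0 and 78.7 in WT (log2 fold change -0.18 ± 0.13 (SE, n = 4 and 4), edgeR adjusted p = 0.606), with KO replicates 1 and 2 the lowest of the 8. Il12rb2 measured 29.3, 24.2, 18.5 and 19.8 CPM in KO and 26.4, 32.2, 24.6 and 21.5 in WT (edgeR adjusted p = 0.679). Il18r1 ranged from 121 to 208 CPM in KO and from 148 to 205 in WT (edgeR adjusted p = 0.786).

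Markers of CD4 T cells and of other cells differed between the genotypes of the HP1g line in part. Of 8 markers of CD4 memory cells, 4 had an edgeR unadjusted p under 0.05, against 11.9% of all genes, and none was called. Thy1 and Cd3g were lower and Cd5 higher in KO without overlap (log2 fold changes -0.27, -0.21 and 0.18, edgeR adjusted p = 0.218, 0.325 and 0.336), against 7.1% of all genes. The summed CPM of the 8 overlapped, at 4356 to 5005 in KO and 4691 to 5005 in WT. The summed CPM of 3 erythroid genes was 51.6 to 737 in HP1g KO and 28.8 to 323 in HP1g WT, and that of 6 B cell genes was 60.2 to 65.4 against 42.8 to 53.3. All 6 B cell genes had a log2 fold change above 0, and none was called. Pax5 was higher in all KO samples than in all WT samples (log2 fold change 0.82, edgeR adjusted p = 0.310). Cd22 overlapped (0.37, edgeR adjusted p = 0.385). Ms4a1, which encodes the B cell antigen CD20, stayed at or below 1.43 CPM in both genotypes. The summed CPM of 5 regulatory T cell genes overlapped, at 643 to 1032 in KO and 582 to 957 in WT. No list had a defining marker at 0 in all samples of a group, and the part of these cells in the values above was not tested.

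Whether the 2 knockouts acted differently on a chain was tested as an interaction over all 16 samples. None of the 10 chains was called by edgeR or DESeq2, edgeR called 0.0507% of 15776 genes, and no chain had an unadjusted p under 0.05, which 9.58% of all genes had. The estimate farthest from 0 was that of Il12rb1 (HP1a effect minus HP1g effect, log2 0.30 ± 0.16 (SE, n = 4 in each of 4 groups), edgeR adjusted p = 0.585). The 95% confidence interval of that difference ran from -0.04 to 0.64. For Il4ra the interval ran from -0.94 to 0.64.

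**Figure D3:**
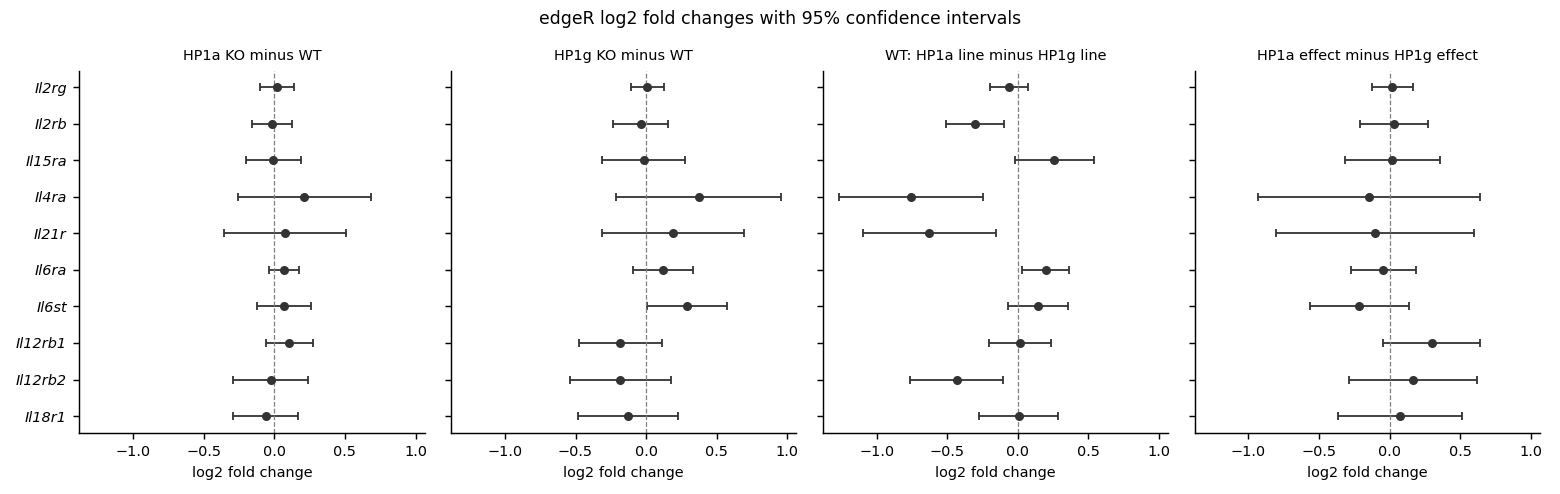
log2 fold change of each receptor chain with its 95% confidence interval (edgeR), for HP1a KO minus WT, HP1g KO minus WT, WT of the HP1a line minus WT of the HP1g line, and the difference of the 2 knockout effects. Intervals of the knockout comparisons include 0 except that of Il6st in the HP1g line, and those of Il2rb, Il4ra, Il21r, Il12rb2 and Il6ra between the WT groups exclude it.

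The WT groups of the 2 lines carry no knockout, so their comparison shows how far the chains differed between lines. Line, cohort and the floxed HP1g allele cannot be told apart in it. None of the 10 chains was called by edgeR, although 12.8% of 14804 genes were (4.55% higher in the HP1a line and 8.25% higher in the HP1g line). An unadjusted p under 0.05 was found for 5 of the 10, Il2rb, Il4ra, Il21r, Il12rb2 and Il6ra, against 29.9% of all genes. No chain had groups that did not overlap, against 19.5% of all genes. The median log2 difference of the chains, HP1a WT minus HP1g WT, was -0.03 against 0.02 over all genes.

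Il4ra differed most, at 194, 164, 239 and 313 CPM in HP1a WT and 467, 499.9, 301 and 272 CPM in HP1g WT. Replicates 3 and 4 of both groups fell between 239 and 313, and the gap came from replicates 1 and 2 (log2 difference -0.76 ± 0.23 (SE, n = 4 and 4), fold 0.591 with a 95% confidence interval of 0.415 to 0.844, edgeR adjusted p = 0.0559). Il21r had the same form, at 186, 172, 244 and 303 CPM against 429, 434, 257 and 279 CPM (log2 difference -0.63 ± 0.21 (SE, n = 4 and 4), edgeR adjusted p = 0.0770). Il2rb was at 1011 to 1225 CPM in HP1a WT and 1148 to 1527 in HP1g WT, with HP1g WT replicate 3 the only sample of its group inside the HP1a range (log2 difference -0.30 ± 0.09 (SE, n = 4 and 4), edgeR adjusted p = 0.0554). Il12rb2 was at 15.4 to 23.9 CPM against 21.5 to 32.2 (log2 difference -0.43 ± 0.15 (SE, n = 4 and 4), edgeR adjusted p = 0.0797). Il6ra went the other way, at 206 to 219 CPM against 170.2 to 216 (log2 difference 0.20 ± 0.08 (SE, n = 4 and 4), edgeR adjusted p = 0.108).

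These values stood near the threshold, and the calls depended on the processing. DESeq2 called Il2rb (adjusted p = 0.0193) and Il12rb2 (0.0385), and edgeR without a filter on low counts called Il4ra (0.0256) and Il21r (0.0443). One fit of all 16 samples called Il2rb (0.0197). Leaving out HP1g WT replicate 4 called Il4ra, Il6ra (0.0236) and Il12rb2, leaving out HP1a WT replicate 4 called Il4ra (0.0301), and leaving out HP1g WT replicate 3 called Il2rb (0.0273). Without HP1a WT replicate 1 the number of all genes called fell from 1896 to 573. Il15ra, Il6st, Il2rg, Il12rb1 and Il18r1 were not called under any of these settings. Il18r1 was level between the WT groups, with means of 176 ± 25 CPM (SD, n = 4) and 175 ± 29 CPM (SD, n = 4).

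Taking both genotypes of a line, the 8 samples of the HP1g line had a median of 1349 CPM for Il2rb, and 7 of them were above all 8 samples of the HP1a line, whose median was 1085. For Il4ra, Il21r and Il12rb2, 5 of 8 were above all of the HP1a line. For Il15ra 6 of 8, and for Il6ra 5 of 8, were below all of it. Between the KO groups of the 2 lines, Il2rb and Il15ra did not overlap. These counts are a description of the 2 lines and were not tested. The shares of all genes with such counts were not computed. Between the WT groups of the 2 lines, 19.5% of all genes did not overlap.

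Il4ra and Il21r also varied between samples of a group. In each sample, the log2 CPM of a chain was taken as a deviation from its group mean. Il4ra and Il21r, the neighbours on chromosome 7, deviated together, with Pearson r = 0.975 and Spearman rho = 0.938 over 16 samples, 0.969 without the 2 samples farthest from the median of Il4ra, 0.977 in the 8 samples of the HP1a line and 0.975 in the 8 of the HP1g line. This closeness was not particular to the pair, as Ifngr1 was closer to Il4ra (r = 0.984) and Got1 about as close to Il21r (0.975). The samples high in Il4ra and Il21r were replicates 1 and 2 of both genotypes in the HP1g line and replicates 3 and 4 of HP1a WT and replicate 3 of HP1a KO. Markers of other cells moved with some of them. The summed CPM of 7 myeloid genes in replicates 1 to 4 was 75.3, 75.1, 153 and 106 in HP1a KO and 65.8, 63.7, 121 and 113 in HP1a WT. Il4ra was also highest in replicates 3 and 4 of both, but lay near its group mean in KO replicate 4. The myeloid sum was 116, 76.5, 82.4 and 86.6 in HP1g KO and 79.9, 90.7, 69.5 and 63.7 in HP1g WT. It was highest in WT replicates 1 and 2 and KO replicate 1, as Il4ra was, but lowest in KO replicate 2, where Il4ra was high. The summed CPM of 5 regulatory T cell genes was 824, 1032, 663 and 643 in HP1g KO and 957, 733, 582 and 722 in HP1g WT, highest in replicates 1 and 2. The latter sum was 502, 497, 630.1 and 705 in HP1a KO and 519, 722, 743 and 653 in HP1a WT, where Il4ra was lowest in replicate 2. The part of these cells in the variation of the chains was not tested. Il6st followed Il21r (r = 0.815, rho = 0.744), closely in the HP1g line (0.976) and less so in the HP1a line (0.538). Il12rb2 followed Il4ra (r = 0.654, rho = 0.585), with 0.923 in the HP1g line and 0.173 in the HP1a line. Opposite to them went Il6ra, with r = -0.702 to Il4ra (rho = -0.685), -0.878 in the HP1g line and -0.222 in the HP1a line, and Il12rb1, with r = -0.691 to Il4ra (rho = -0.659).

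**Figure D4:**
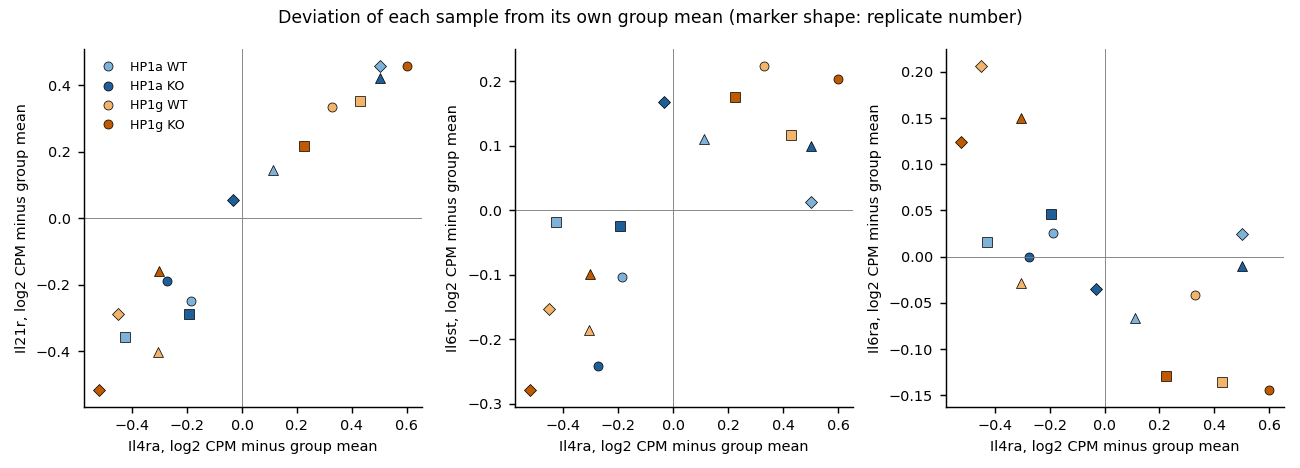
Deviation of log2 CPM from the group mean for Il4ra (horizontal axis) against Il21r, Il6st and Il6ra (vertical axes), one point per sample, coloured by group, with the marker shape giving the replicate number. Il21r rises with Il4ra along a line (r = 0.975), Il6st rises more loosely (r = 0.794) and Il6ra falls (r = -0.702).

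Of the 45 pairs of chains, 9 had r above 0.5 and 10 below -0.5. The share of pairs beyond these limits among all genes was not computed, so these counts are not set apart from other genes. Over the 16 samples, r was above 0 within Il4ra, Il21r, Il6st and Il12rb2 and within Il15ra, Il6ra, Il12rb1 and Il18r1, and below 0 between these sets. In the HP1g line all 28 of these pairs had the same sign as over the 16 samples, but in the HP1a line 7 did not. There Il12rb2 had r = 0.715 with Il6ra (-0.927 in the HP1g line), 0.267 with Il18r1, 0.179 with Il15ra, 0.034 with Il12rb1 and -0.250 with Il6st, while Il6st had 0.307 with Il15ra and Il4ra 0.037 with Il18r1. Il2rb and Il2rg, the chains with the highest levels, correlated with each other (r = 0.474) and had r between -0.25 and 0.44 with the rest. The samples of a pair share a library, its depth and its handling, and these correlations are given as a description.

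**Figure D5:**
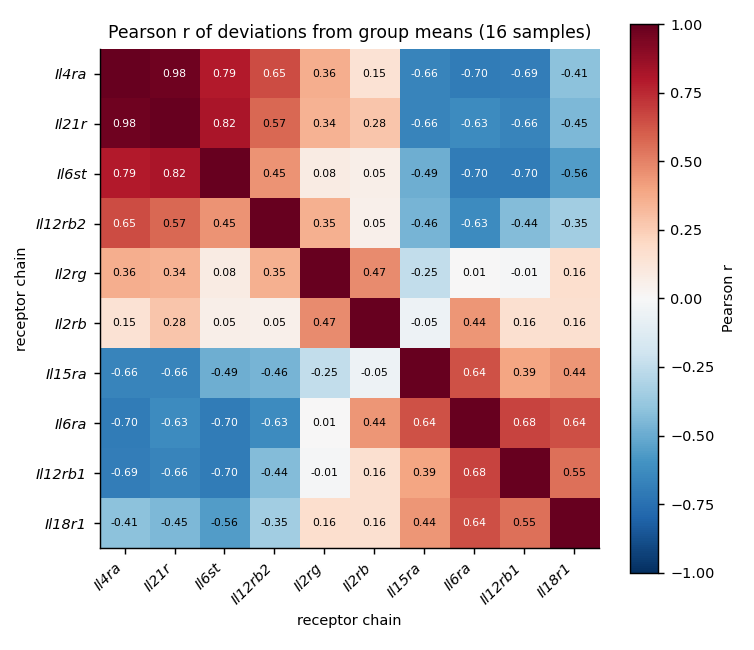
Pearson r between the deviations of each pair of receptor chains from their group means over 16 samples, with the value in each cell. Il4ra, Il21r, Il6st and Il12rb2 form a block of positive values (0.45 to 0.98) and have negative values with Il15ra, Il6ra, Il12rb1 and Il18r1 (-0.70 to -0.35). In the HP1a line alone, 7 of these 28 pairs had the opposite sign.

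By the same measure, the genes most like each chain over the 16 samples included other signalling genes for some. Nearest to Il4ra were Ifngr1 (r = 0.984), which encodes the ligand-binding chain of the interferon gamma receptor, and Il21r (0.975). Nearest to Il21r were Il4ra, Got1 (0.975) and Mideas (0.969). Nearest to Il6st were Dusp16 (0.937), Bend3 (0.925) and Malt1 (0.923), and to Il12rb2 Pde3b (0.934), Fam102b (0.884) and Pik3r1 (0.870). Il6ra was nearest to Rnf41 (0.945), Dpysl2 (0.940) and Mrpl24 (0.928), Il12rb1 to Bsn (0.908), Tap1 (0.901) and Evl (0.901), and Il15ra to Pnpla6 (0.956), Tom1l2 (0.928) and Hdhd2 (0.906). Il18r1 was nearest to Lrrc75b (0.930), Nhsl2 (0.916) and Stk38 (0.899). Il2rb (Gm42890 0.876, Hic1 0.844, Phc2 0.821) and Il2rg (Hsd11b2 0.858, Rab7-ps1 0.819, Zfp628 0.818) had the least similar neighbours.

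The partner chains did not pass the test in HP1a KO. Il2ra, the alpha chain for IL-2 and a marker of the sort gate, was at 29.6 ± 3.7 CPM in KO and 29.6 ± 3.0 in WT (SD, n = 4 each). Il7r, Il18rap, Il27ra, Il10ra, Il23r and Csf2rb had log2 fold changes of -0.005, -0.04, 0.06, 0.07, -0.33 and 0.55, with edgeR adjusted p of 0.946 or more. None of 36 other receptor chains tested was called (median log2 fold change -0.0005). Nor was any of 10 ligands (0.01), 15 kinases, adaptors and STAT factors (0.02) or 16 feedback inhibitors (0.02). The nearest were Il17rb, Il13ra1, Csf2rb and Tgfbr2 among the chains, with unadjusted p of at least 0.0614, and Socs3 among the inhibitors (log2 fold change 0.26, unadjusted p = 0.0350).

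In HP1g KO, 1 of 36 other receptor chains was called, against 0.327% of all genes tested. Il17rb, a chain of the IL-25 receptor, fell to 12.5 CPM from 26.7 (log2 fold change -1.08 ± 0.18 (SE, n = 4 and 4), edgeR adjusted p = 0.0390). Its groups did not overlap, as in 7.1% of all genes. The call held in 2 of the 8 fits that left out 1 sample (without HP1g KO replicate 4 and without HP1g WT replicate 3), with adjusted p from 0.0239 to 0.157 and log2 fold changes from -1.21 to -0.94 over the 8. It was lost with the replicate block in edgeR (adjusted p = 0.0585) and with limma, and held with DESeq2 (adjusted p = 1.52e-06). Il10ra, the IL-10 receptor chain, was at 79.8 to 95.3 CPM against 65.2 to 78.5 (log2 fold change 0.34, edgeR adjusted p = 0.155), and Il27ra, which signals with gp130 for IL-27, was at 195 to 230.1 CPM against 233 to 281 (log2 fold change -0.24, edgeR adjusted p = 0.325). Epor had a log2 fold change of 1.80 (edgeR adjusted p = 0.335). Il2ra, Il7r, Il18rap, Il23r and Csf2rb had log2 fold changes of -0.04, -0.21, 0.10, 0.18 and 0.96, with edgeR adjusted p of 0.406 or more. The median over the 36 chains was 0.04. No ligand, kinase, adaptor, STAT factor or feedback inhibitor was called. The medians were 0.11 for ligands, -0.005 for kinases, adaptors and STAT factors, and 0.01 for inhibitors. Among the genes of these lists were Il4 (log2 fold change -0.85, edgeR adjusted p = 0.251), Ebi3 (0.49, edgeR adjusted p = 0.317) and Stat5a (0.48, edgeR adjusted p = 0.367).

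Between the WT groups, calls in these lists are set against the 12.8% of all genes called. Of 35 other chains, 1 was higher in HP1a WT (Il9r, log2 difference 0.47, edgeR adjusted p = 0.0273) and 2 were lower (Tgfbr2, -0.40, edgeR adjusted p = 0.0203, and Ifngr1, -0.66, edgeR adjusted p = 0.0426), with a median of -0.17. Ifngr1, the gene most like Il4ra, was at 182 to 287 CPM in HP1a WT and 258 to 429 in HP1g WT. Il2ra, Il27ra and Csf2rb had log2 differences of -0.34, 0.19 and -0.70 and edgeR adjusted p of 0.108, 0.109 and 0.136. Il7r, Il18rap, Il23r and Il10ra had log2 differences of 0.09, 0.08, -0.42 and -0.007. Of 10 ligands, Il13 was lower (-1.28, edgeR adjusted p = 0.0468). Of 15 kinases, adaptors and STAT factors, Irak4 was higher (0.43, edgeR adjusted p = 0.0241) and Traf6 (-0.51, edgeR adjusted p = 0.0185), Stat5a (-0.54, edgeR adjusted p = 0.0267), Stat3 (-0.33, edgeR adjusted p = 0.0404) and Stat4 (-0.24, edgeR adjusted p = 0.0492) were lower. Of 16 feedback inhibitors, Pias3 was higher (0.36, edgeR adjusted p = 0.0154) and Socs6 (-0.77, edgeR adjusted p = 0.00395) and Cish (-0.71, edgeR adjusted p = 0.0403), an inhibitor induced by STAT5, were lower. Of these, Socs6 was called in each of the 8 fits that left out 1 sample, and the others in 1 to 5 of 8, with no call without HP1a WT replicate 1 or without HP1g WT replicate 1. Over 9 other settings, Socs6 was called in 9, Tgfbr2 and Stat3 in 8, Cish, Stat5a and Traf6 in 7, Ifngr1 and Il9r in 6, Irak4 and Pias3 in 5, Il13 in 4 and Stat4 in 1. With the replicate block in edgeR, Socs6 alone of these 12 genes was called.

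Cell markers differed between the WT groups as well. Cd44, a gene of the sort gate, was at 259 to 298 CPM in HP1a WT and 337 to 377 in HP1g WT (log2 difference -0.35, edgeR adjusted p = 0.0104). Eomes, listed here as an NK marker and also expressed by T cells, was at 14.7 to 17.8 CPM against 21.1 to 31.4 (-0.68, edgeR adjusted p = 0.00960), while Ncr1 was at most 0.221 CPM. Tnfrsf4, on the regulatory T cell list, had a log2 difference of -0.82 (edgeR adjusted p = 0.0474), and the summed CPM of that list was 519 to 743 against 582 to 957. Cd44 and Eomes were called in each of the 8 fits that left out 1 sample and Tnfrsf4 in 2. Over 9 other settings, Cd44 was called in 7, Eomes in 8 and Tnfrsf4 in 6, with adjusted p of 0.0592 for Cd44 with the replicate block in edgeR and 0.113 for Eomes with limma without a TPM filter. In these bulk samples, a change in the mix of cells and a change in RNA per cell cannot be told apart, and the part of the mix in the line difference was not tested. In the interaction test, none of the 37 other chains, 10 ligands, 15 kinases, adaptors and STAT factors, and 16 inhibitors was called.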

How the data were processed

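RNA-Seq of 16 samples (4 groups of 4) was analysed, grouped by the titles. The authors used an nf-core workflow, in which Trim Galore trimmed reads, STAR aligned them to GRCm39 with Ensembl gene models, and Salmon gave estimated counts. The authors deposited these unnormalized, together with TPM. Every column was mapped to a sample. Salmon assigns reads that match several genes by estimation, so that genes with shared sequence have uncertain counts. Samples held 26694045 to 40199637 counts, and no 2 replicates had identical values.

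The estimated counts were rounded and differences tested in R 4.3.3 using edgeR 4.0.16 (filterByExpr with a minimum count of 10, TMM, glmQLFit, glmQLFTest, Benjamini-Hochberg adjustment over all genes tested), for each KO against its own WT, for WT between lines and as an interaction. A gene was called at adjusted p under 0.05. CPM are scaled over the 16 samples, with a prior count of 2 for log2 CPM. Alternatives were DESeq2 1.42.0, RLE size factors, no filter on low counts, a replicate block, all 16 samples in one fit, limma 3.58.1 on log2(TPM + 1) and log2(TPM + 0.1) with a minimum mean of 1 TPM or no minimum, and the omission of each sample. DESeq2 with a replicate block was chosen after seeing the data. The tests were checked on simulated counts.

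The 10 chains, the lists of partner chains, ligands, transducers, inhibitors and markers, and the rule for genes named (all 10 chains, a fixed set of partner chains, listed genes called or with the smallest p, up to 4 a list, and the 3 genes most like each chain, of which 1 is not reported here) were chosen with earlier results of these data known. The labels' treatment field names cell transfers that are no part of the study's memory cell experiment, and it was not used. Positions and promoter windows are from GRCm39 with a GENCODE release that is not the one the authors counted on. No protein sequence was used here. Intervals and tests cover the spread between samples only.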

Additional observations from a re-analysis of the deposited data

Results flagged for a closer look

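In groups of 4 samples, the level of Il6ra in HP1a WT replicate 3 (205.9 CPM) lay apart from the other 3 samples of its group (218 to 219 CPM), with a gap of 0.893 of the range of the group, above Dixon's critical value for 4 samples. It was the only one of 48 groups of values tested that passed this limit, which chance passes in about 1 of 20 groups. Without this sample, the log2 fold change of Il6ra in HP1a KO was 0.05 in place of 0.07.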

How the results depend on the processing

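No chain was called in the HP1a comparison or in the interaction under any alternative. The number of all genes called moved more. In the HP1a comparison it was 5 with DESeq2, 1 without the filter on low counts, 3 with limma on TPM under each pseudocount and filter, and 16 with DESeq2 and a replicate block, against 0. In the HP1g comparison it was 256 with DESeq2, 17, 20 and 12 with limma on log2(TPM + 1), on log2(TPM + 0.1) and without the TPM filter, 96 with all 16 samples in one fit and 447 with DESeq2 and a replicate block, against 49. Between the WT groups it was 1135, 1143 and 551 with the 3 limma settings, against 1896. In the interaction it was 76 with DESeq2, 14 without the filter on low counts and 4, 3 and 5 with limma, against 8. Of the chains, 2 were called between the WT groups with DESeq2 and 2 without the filter on low counts, and 1 with all 16 samples in one fit, all of them lower in HP1a WT. The cause of these changes was not tested.

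Same-numbered samples did not deviate together by rule, with correlations of 0.09 to 0.23 in the HP1a line, 0.003 to 0.15 in the HP1g line and -0.20 to -0.07 between the WT groups, and not every sample correlated best with its own number. The replicate block in edgeR gave 577 genes called between the WT groups and 13 in the interaction, and 60 in the HP1g comparison, with no chain called. DESeq2 with the replicate block called 2 chains in the HP1g comparison, Il4ra (log2 fold change 0.35, adjusted p = 0.00255) and Il6st (0.28, adjusted p = 0.000620), and 1 between the WT groups, Il2rb (adjusted p = 0.000717).

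Small log2 fold changes turned sign. In the HP1g comparison Il2rg was -0.0068 without the filter on low counts and -0.0017 with all 16 samples in one fit, against 0.0072. With limma Il2rb was 0.0234, 0.0235 and 0.0234 and Il15ra was 0.13, 0.14 and 0.13 under the 3 settings. In the interaction, the 3 limma settings gave -0.027, -0.027 and -0.027 for Il2rb, -0.068, -0.068 and -0.068 for Il2rg and -0.19, -0.20 and -0.19 for Il15ra.

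Leaving out each sample in turn gave 0 to 3 genes called in the HP1a comparison, 30 to 49 in the HP1g comparison, 573 to 2185 between the WT groups and 7 to 12 in the interaction, and 0 to 3 chains between the WT groups. In the HP1a comparison, the log2 fold changes that turned sign ranged from -0.057 to 0.036 for Il2rb, from -0.0068 to 0.052 for Il2rg, from -0.050 to 0.039 for Il15ra, from -0.086 to 0.25 for Il21r, from -0.12 to 0.090 for Il12rb2 and from -0.13 to 0.033 for Il18r1. In the HP1g comparison they ranged from -0.11 to 0.014 for Il2rb, from -0.012 to 0.024 for Il2rg and from -0.10 to 0.079 for Il15ra. Between the WT groups they ranged from -0.059 to 0.068 for Il12rb1 and from -0.086 to 0.093 for Il18r1. In the interaction they ranged from -0.030 to 0.10 for Il2rb, from -0.0060 to 0.058 for Il2rg, from -0.34 to 0.084 for Il4ra, from -0.086 to 0.10 for Il15ra, from -0.26 to 0.076 for Il21r, from -0.12 to 0.012 for Il6ra and from -0.033 to 0.23 for Il18r1. With 4 samples a group, the spread of Il4ra and Il21r between samples set the width of their intervals.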
